A study of Rattus norvegicus with 2 samples.

Results

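The genes described here encode acute phase proteins, the plasma proteins whose synthesis changes when a tissue is injured or inflamed, together with the 3 chains of fibrinogen. The 8 genes are Serpina3n, Fga, Fgb, Fgg, Cp, Hp, A2m and Orm1, out of 13435 genes that the array's probes could be assigned to. They were read from every probe, control spots aside, whose RefSeq accession belongs to 1 of them, 12 probes out of 40998. The set was put together with the same pioglitazone and vehicle comparison in view, so the differences below describe these arrays and are given without a test.

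Whole-kidney RNA was taken from females of the PCK rat, which carries a spontaneous mutation in Pkhd1, develops cysts in kidney and liver, and models autosomal recessive polycystic kidney disease. Both groups therefore share the strain, the mutation and the sex. From 4 to 20 weeks of age rats were gavaged every day with pioglitazone at 10 mg/kg, a drug that activates PPAR-gamma, or with a vehicle of 0.5% DMSO. RNA was pooled within each group, from 5 females by the design text and from 3 rats by the labelling text, and 1 Agilent array was hybridised with the Cy3-labelled RNA of each pool. The +/+ rats named in the treatment text are not analysed here.

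In the liver, the acute phase response is started mainly by interleukin-6 and interleukin-1. Interleukin-6 binds its receptor together with gp130, which activates the transcription factor STAT3, and interleukin-1 acts through NF-kB and C/EBP factors. In the kidney, tubule cells and infiltrating leukocytes can make several of these proteins, and fibrinogen transcripts and Serpina3n are known to increase in damaged tubules. In whole-tissue RNA, fewer cells of a type and less RNA per cell cannot be told apart.

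Both arrays were on 1 slide and were read in 1 scan. Of 43379 spots besides controls, 71.8% in the vehicle array and 73.1% in the pioglitazone array were well above background, and none was saturated. The pioglitazone array was brighter by 0.08 on the log2 scale at its 75th percentile, and this shift was removed before differences were taken. Each gene is represented by its brightest probe, and 10480 genes whose brightest probe stood well above background on both arrays are called measured. Kidney markers were bright: uromodulin (Umod) gave signals of 195000 and 220000 and megalin (Lrp2) 52900 and 57100 in the vehicle and pioglitazone arrays. Over measured genes the median difference was 0.03. When the grid's rows are cut into 10 bands of equal height, bands 6 and 7, called the middle grid rows here, held 19.9% of measured genes and 16 of the 48 that were 2-fold apart, so values read there are marked as such. With 1 array of pooled RNA per group there is no replicate check, and the number of arrays limits the precision. All differences are pioglitazone minus vehicle on the log2 scale after scaling, while signals are intensities as deposited.

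Of the 8 genes, 7 were measured on both arrays. Serpina3n and A2m were lower with pioglitazone by more than 1.5-fold, Cp, Fgb and Fgg were lower by less than that, and Fga and Hp differed by 0.02. No member was higher by 1.5-fold. The count of 2 genes among 7 that were lower by 1.5-fold stands beside 1.87% of all measured genes, and higher by 1.5-fold were 0.84% of all. With the further demand of more than 2 technical errors, described next, the members lower numbered 2 beside 1.76% of all measured genes, and 0.754% were higher. At 2-fold 0 members were lower beside 0.296%. The median of the 7 was -0.37 beside 0.03 over all measured genes. These counts come from the comparison that the set was chosen on, so nothing is read from them. The technical error of a difference joins the errors that the scanner software gives for the spot on either array. It lay between 0.20 and 0.21 for the 11 measured probes, so a difference beyond 0.41 exceeded 2 technical errors. At Serpina3n, Fga and Fgb alike it was 0.204, as was its median over all measured genes. The technical error thus acts here as a nearly fixed cutoff and is not noise measured from repeated spots. It holds no spread between rats. The array's probes printed 10 times show the spread of the spots alone: with outlier-flagged spots left out, the SD of the difference had a median of 0.07 over 52 probes with vehicle signals from 100 to 500, and of 0.05 over 43 probes above 2000.

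**Figure D1:**
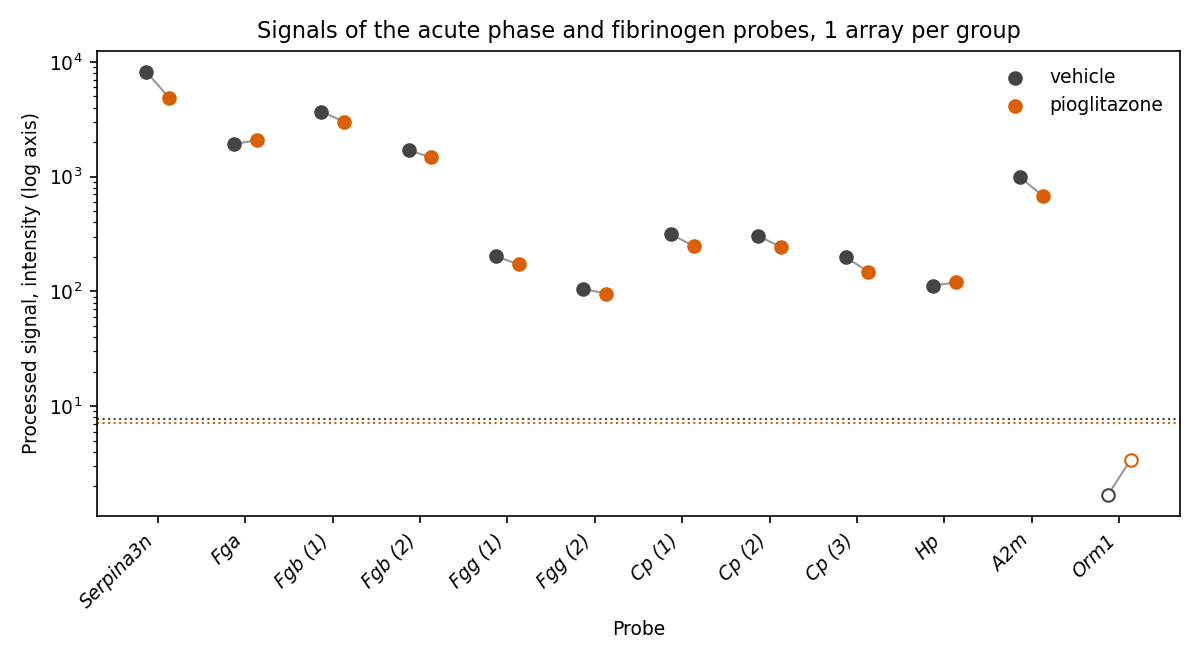
Processed signal of each of the 12 probes in the vehicle array (grey) and the pioglitazone array (orange), on a log axis and before scaling between arrays; numbers in brackets order the probes of 1 gene by brightness. Dotted lines mark the lowest signal well above background on each array, 7.66 and 7.16, and the open circles of Orm1 at 1.68 and 3.40 lie under them.

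Serpina3n, a secreted serine protease inhibitor related to human alpha-1-antichymotrypsin, had the brightest probe of the set. Its signal was 8180 with vehicle and 4870 with pioglitazone. The difference was -0.83, which is 1.78-fold lower and more than 2 technical errors. Only 0.601% of measured genes had a lower difference. Of 1083 measured genes at least as bright as Serpina3n, 2 were lower by 1.5-fold: Serpina3n itself and Qsox1, a sulfhydryl oxidase named after its values were seen, with signals of 8290 and 5140 and a difference of -0.77. No gene of that brightness had a lower difference than Serpina3n. The members were chosen with this comparison in view, so nothing is read from their ranks here or below. Serpina3n is read from 1 spot, so no other probe speaks to it, and it lies outside the middle grid rows.

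Serpina3n sits in a cluster of related serpin genes. On the gene table its nearest protein-coding neighbours on one side are Serpina3l, Serpina3c and Serpina3a, and among these Serpina3c was measured. Serpina3c, a dim relative, went the other way, with signals of 37.2 and 66.6 and a difference of 0.76. That probe lies in the middle grid rows. Whether a probe of this cluster also binds transcripts of its relatives was not tested. On the other side of Serpina3n, Clmn was at 0.14, Syne3 at 0.12 and Glrx5 at 0.12, all within 2 technical errors.

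A2m encodes alpha-2-macroglobulin, a broad protease trap that is a major acute phase protein of the rat. Its signal was 984 with vehicle and 676 with pioglitazone, a difference of -0.62 or 1.54-fold. This exceeded 2 technical errors, and 1.49% of measured genes had a lower difference. The value lies close to the 1.5-fold threshold, and A2m was at -0.57 with median scaling and at -0.54 without scaling, both short of it. The difference of Serpina3n was 0.21 further below 0 than that of A2m, with a technical error of 0.29 on that gap. Pzp, a related protease trap, was at 0.14 (2250 and 2620), and Mug1, another relative, was not well above background on either array.

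Cp encodes ceruloplasmin, a copper-carrying ferroxidase that helps iron leave cells. The array reads it with 3 probes, and all had lower signals with pioglitazone: the brightest went from 315 to 249, the next from 305 to 243 and the dimmest from 198 to 149. The differences were -0.42, -0.41 and -0.49, each just beyond 2 technical errors and none at 1.5-fold. At the brightest probe the difference was -0.37 with median scaling, -0.34 without scaling and -0.40 with normexp, each within 2 technical errors. The 3 probes of Cp thus span 0.08 on the log2 scale. The first and the third lie in the middle grid rows, and the second, outside them, gave the same direction.

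**Figure D2:**
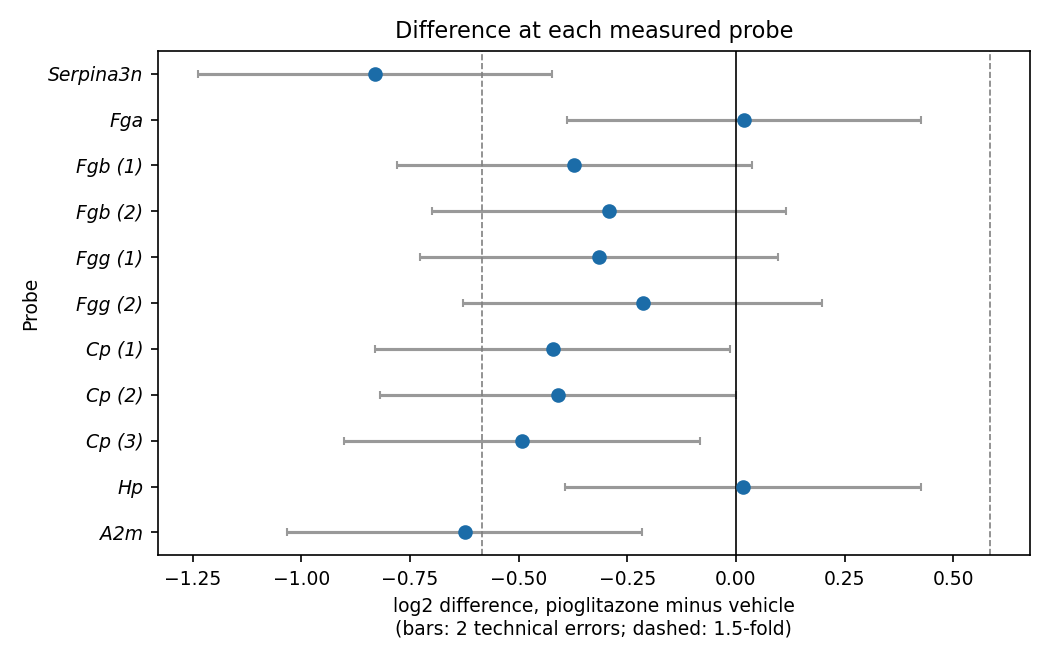
Log2 difference (pioglitazone minus vehicle) at each of the 11 measured probes, with bars of 2 technical errors and dashed lines at 1.5-fold. Serpina3n at -0.83 and A2m at -0.62 lie past the lower line, all 3 Cp probes lie between -0.49 and -0.41, and Fga and Hp lie at 0.02.

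Fibrinogen is a hexamer of paired alpha, beta and gamma chains, encoded by Fga, Fgb and Fgg, which lie side by side on rat chromosome 2. Thrombin converts it to fibrin. In these arrays the beta and gamma chains were lower with pioglitazone while the alpha chain was level. Fgb had signals of 3690 and 3020 at its brighter probe and of 1700 and 1470 at the other, with differences of -0.37 and -0.29. Fgg had signals of 202 and 172 at its brighter probe and of 105 and 95.8 at the other, with differences of -0.31 and -0.21. All 4 of these differences had the same direction, and each was within 2 technical errors, although Fgb reached -0.41 with cyclic loess, just beyond them. Fga, read by 1 probe, had signals of 1930 and 2070 and a difference of 0.02, whose sign turned to -0.03 with quantile normalization and to -0.02 with cyclic loess. The gap between the differences of Fga and Fgb was 0.39, with a technical error of 0.29, and that between Fga and Fgg was 0.33, with a technical error of 0.29. The chains were thus not shown to differ from each other beyond 2 technical errors.

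The genes on both sides of the fibrinogen genes were read as well, as they were picked for place and not for value. Beyond Fgg lies Lrat, which esterifies retinol, with signals of 355 and 202 and a difference of -0.90. This is past 1.5-fold, beyond 2 technical errors and lower than any member. Beyond Fgb lies Plrg1, a splicing factor, with signals of 1550 and 2110 and a difference of 0.36, within 2 technical errors. Fgb and Plrg1, which are neighbours, thus had opposite signs, while the neighbours Fgg and Lrat had the same sign.

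The sequences before the fibrinogen genes and Serpina3n are shown because a short element in them, CTGGGAA, is known as the core of the interleukin-6 response element of acute phase genes. RefSeq promoter windows of build GRCr8 were found for 6 of the 8 genes, the others being A2m and Hp. Each line gives bases before the annotated gene, 5′ to 3′ on the gene's strand, with CTGGGAA or its reverse complement in capitals. The positions are chr6:129088142-129088391 on the plus strand for Serpina3n, chr2:170671919-170672168 on the plus strand for Fga, chr2:170700876-170701125 on the minus strand for Fgb and chr2:170652833-170652928 on the plus strand for Fgg, which is shorter because 1 transcript starts there.
Serpina3n: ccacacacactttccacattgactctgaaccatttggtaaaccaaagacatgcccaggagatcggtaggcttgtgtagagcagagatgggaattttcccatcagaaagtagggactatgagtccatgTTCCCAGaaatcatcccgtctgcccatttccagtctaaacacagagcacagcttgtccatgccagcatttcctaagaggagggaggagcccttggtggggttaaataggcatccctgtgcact
Fga: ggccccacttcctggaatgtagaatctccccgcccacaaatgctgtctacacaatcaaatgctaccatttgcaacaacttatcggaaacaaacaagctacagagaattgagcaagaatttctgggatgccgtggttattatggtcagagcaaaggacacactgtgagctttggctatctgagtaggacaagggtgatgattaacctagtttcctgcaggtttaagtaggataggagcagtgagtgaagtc
Fgb: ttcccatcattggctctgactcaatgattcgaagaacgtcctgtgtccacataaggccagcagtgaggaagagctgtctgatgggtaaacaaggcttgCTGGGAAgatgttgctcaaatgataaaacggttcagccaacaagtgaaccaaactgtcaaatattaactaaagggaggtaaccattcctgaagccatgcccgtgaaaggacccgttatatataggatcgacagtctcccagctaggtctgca
Fgg: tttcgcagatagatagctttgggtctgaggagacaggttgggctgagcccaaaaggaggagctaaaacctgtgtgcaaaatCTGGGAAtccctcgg

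In the 250 bases before the start, on both strands, CTGGGAA was found in the windows of Serpina3n, Fgb and Fgg and not in those of Fga, Cp and Orm1. The Cp window lies wholly inside the annotated Cp gene, so bases before that gene were not searched for any element here. CTGGGAA began 123 bases before the start in Serpina3n, 152 bases before it in Fgb, and 169 and 61 bases before it in Fgg. The match at 61 bases lies within the span of another Fgg transcript and so is not printed. Of 27457 promoter windows of this length, 9.32% held CTGGGAA. The STAT consensus TTCNNNGAA was found in Serpina3n, Fga and Fgb, beside 7.50% of all windows, and in Serpina3n it overlaps the CTGGGAA match. The C/EBP-type element TTNNGNAAT was found in Serpina3n, Fgb and Orm1, beside 10.7% of all windows. These matches describe the letters of the windows and say nothing of binding in these kidneys.

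Hp encodes haptoglobin, which binds free haemoglobin. Its signal was 112 with vehicle and 120 with pioglitazone, a difference of 0.02. Hp is close to level between the arrays, and 47.7% of measured genes had a lower difference. Orm1 encodes alpha-1-acid glycoprotein (orosomucoid), a major acute phase protein of rat liver. Its probe was not well above background on either array, at 1.68 and 3.40, so no fold is given and Orm1 is not among the 7 genes counted.

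Cp, Fgb and Fgg have several measured probes, and in each of the 3 all probes had the same direction. Over all measured genes with several measured probes, 1559 of 2417 (64.5%) did. Probes of 1 gene share both RNA pools, so shared direction speaks to the probes and not to the rats. The members were chosen with this comparison in view, and the 2417 genes were not matched to them for size of difference. Nothing is therefore read from the members beside that share.

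**Figure D3:**
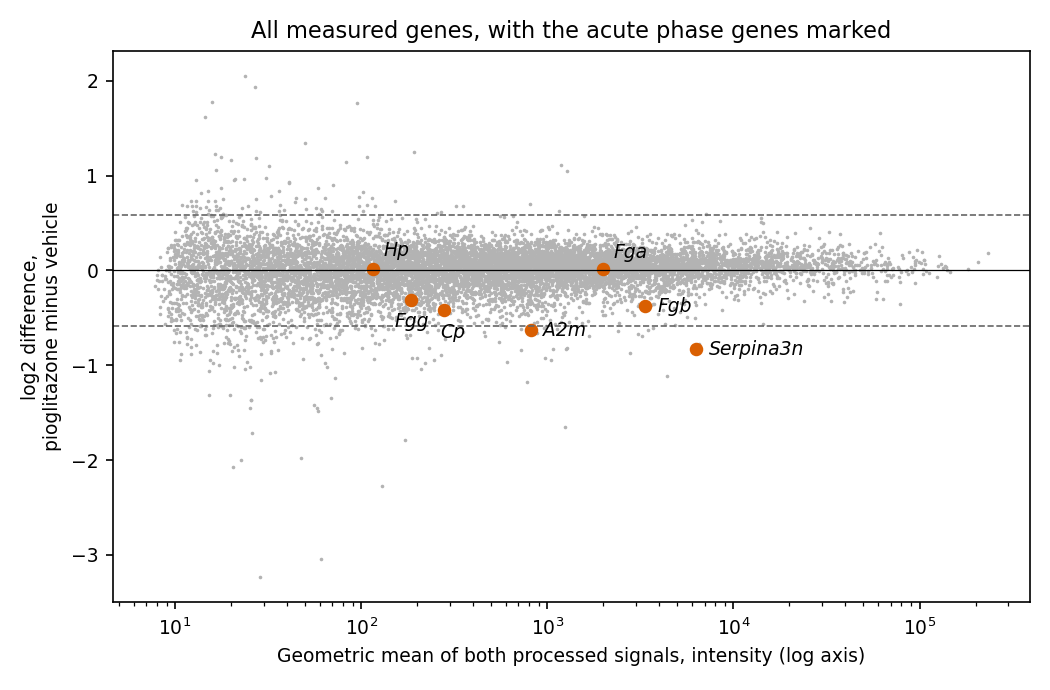
Log2 difference of all 10480 measured genes (grey) against the geometric mean of both signals on a log axis, with the 7 measured members in orange and dashed lines at 1.5-fold. Serpina3n, chosen with this comparison in view, lies below every other gene at least as bright as itself, and Fga and Hp lie near the line of no difference.

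Among other positive acute phase proteins, those that go up in the response, more genes had negative than positive differences. Of 36 listed genes 26 were measured, with a median of -0.11, and 18 of them had negative differences where 43.8% of all measured genes did. By 1.5-fold 3 of the 26 were lower and 1 was higher, each beyond 2 technical errors. Lower were complement factor B (Cfb, signals of 823 and 447, difference -0.96), the haem carrier hemopexin (Hpx, 73.4 and 45.4, -0.78) and the interleukin-1 receptor antagonist (Il1rn, 313 and 214, -0.63). The higher gene was Serpina3c. Crp, which encodes C-reactive protein, was well above background with pioglitazone alone, at 5.84 and 8.97. Its difference was within 2 technical errors, so no fold is given.

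Negative acute phase proteins, which go down in the response, had differences of both signs. Of 10 measured genes 5 were negative and 5 positive, with a median of -0.06 that turned to 0.024 without scaling, 0.086 above the median signal and 0.12 with dim probes kept. Apoa4, an apolipoprotein, was lower by 1.5-fold, with signals of 43.2 and 27.1 and a difference of -0.76. Ttr, which carries thyroid hormone and retinol, was at 0.53 in the middle grid rows, and Alb, which encodes albumin, was at -0.45, within 2 technical errors. Tf, which encodes the iron carrier transferrin, had signals of 3770 and 3030 and a difference of -0.40, also within 2 technical errors.

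Genes of interleukin-6, interleukin-1 and STAT3 signalling had 30 measured members with a median of -0.06, which turned to 0.026 without scaling, and none of them was 1.5-fold apart at its brightest probe. The largest differences were those of the transcription factor Stat5a (1820 and 1310, -0.56), the C/EBP factor Cebpb (109 and 79.9 over 10 spots, -0.53), the interleukin-6 receptor Il6r (146 and 111, -0.48, in the middle grid rows) and the signalling inhibitor Cish (163 and 232, 0.43, in the middle grid rows). Named after their values were seen, the ligand Il6 was not well above background on either array, the ligand Il1b was at 0.00 (257 and 272) and the feedback inhibitor Socs3, a STAT3 target, was at -0.31 (62.4 and 53.4), within 2 technical errors. Stat3 was at 0.01 at its brightest probe, a mean over 10 spots, and at -0.36 at its other probe, so its probes disagree. Ptpn11, a phosphatase of this pathway, was at 0.12 at its brightest probe and at -0.67, past 1.5-fold, at the lowest of its 3, and the NF-kB subunit Rela was at -0.12 at its brightest probe and -0.51 at its other.

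Coagulation and fibrinolysis genes had 23 measured members with a median of -0.03, which turned to 0.025 with median scaling and 0.054 without scaling. None was lower by 1.5-fold and 1 was higher, the urokinase receptor Plaur, with signals of 50.3 and 99.2 and a difference of 0.90 at a probe in the middle grid rows. The next largest were the protease inhibitor Serpine2 (283 and 210, -0.51, with its other probe at -0.07), protein S (Pros1, 74.4 and 58.1, -0.44, with its other probe at -0.16) and urokinase (Plau, 7730 and 6420, -0.35). Not counted as measured, F13a1 (7.18 and 14.4), F7 (8.86 and 14.4) and Tfpi2 (7.56 and 7.53) were well above background with pioglitazone alone. Their differences were all within 2 technical errors. Proteins that bind or take up members of the set, and those that share their iron and haem handling, had a median of -0.02 over 18 genes, which turned to 0.031 with median scaling, 0.061 without scaling and 0.015 above the median signal. Of these the integrin chain Itgam, part of a leukocyte receptor for fibrinogen, was lower, at 24.3 and 15.1 with a difference of -0.77, and its partner Itgb2 was at -0.53 (396 and 290, in the middle grid rows). Haem oxygenase (Hmox1) was at -0.30 over 10 spots and hephaestin (Heph), a ferroxidase related to ceruloplasmin, at -0.27, both within 2 technical errors. For Hmox1 the technical error is the mean over its spots and is not made smaller for their number. Cd163, the macrophage receptor for haptoglobin with haemoglobin, was not well above background on either array.

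Markers of other cells that can make these proteins were read beside the set. Of 18 hepatocyte markers 12 were measured, with a median of -0.11, which turned to 0.23 over genes above the median signal, and summed signals of 49527 and 61227. Signals varied widely, with Hpd (37000 and 47700), Cyp2e1 (5413 and 6715), F2 (4940 and 4640) and Apoc3 (1060 and 892) far above background on both arrays. Hpd, at 0.28 in the middle grid rows, made up most of both sums, so these mainly follow that 1 gene. Albumin was at 24.8 and 19.2, Serpina1 at 18.9 and 17.6, and the liver enzymes Tat and Cyp7a1 were not well above background on either array. The RNA is of whole kidney, and whether hepatocytes gave any of these signals was not tested. The median and sums of this list are thus no measure of hepatocyte RNA. Ahsg and Apoa2 were well above background with pioglitazone alone, and Tdo2 and Cyp2c11 with vehicle alone. Of the 12 measured, 8 were negative and 4 positive. Ttr had the largest difference, 0.53 in the middle grid rows, followed by Alb at -0.45. Apoh was at -0.39 and Apob at -0.36 at its brightest probe and 0.42 at its other probe, and none of the 12 was 1.5-fold apart.

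Of 15 neutrophil markers 6 were measured, with a median of -0.01 and summed signals of 1276 and 1400. This median turned to 0.041 with median scaling, 0.071 without scaling, 0.017 with quantile normalization, 0.0033 with cyclic loess and 0.16 above the median signal. S100a8 was at -0.45 (38.6 and 29.9), Ncf1 at -0.25, Mmp9 at 0.17 and Np4 at 0.16, while Camp, Fpr1, Cxcr2, Mmp8 and Elane were not well above background on either array. Np4 (829 and 982) made up most of both summed signals, so these mainly follow that 1 gene. Erythroid and blood markers had a median of -0.13 over 7 genes and summed signals of 8534 and 7633, with 1 gene lower by 1.5-fold, the haemoglobin chaperone Ahsp (-0.97), followed by Alas2 (-0.56), Hbb (-0.47) and Epb42 (-0.13). Slc4a1 (3810 and 3940), which is also on the list of other kidney segments, was the largest part of both these sums.

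Macrophage and injury markers had negative differences, as did 5 of the 7 measured members and 43.8% of all measured genes. The members were chosen with this comparison in view, so nothing is read from that likeness. All 14 measured macrophage markers of 16 listed were negative, with a median of -0.35, summed signals of 35334 and 31321, and 3 lower by 1.5-fold: Itgam, Trem2 (-0.66, in the middle grid rows) and Gpnmb (-0.62). All 16 measured markers of injured tubule and cyst epithelium were negative, with a median of -0.29, summed signals of 232863 and 200612, and 1 lower by 1.5-fold, the injury molecule Havcr1 (708 and 495, -0.60). S100a6 was at -0.56, Lcn2 at -0.49 and Cd44 at -0.45. Proximal tubule markers were positive in all 16 genes, with a median of 0.18, summed signals of 377801 and 443060 and none 1.5-fold apart. Slc7a7 was at 0.33, Slc5a1 at 0.33, Pck1 at 0.31 and Ggt1 at 0.27. Markers of other kidney segments had a median of 0.11 (12 genes), with Foxi1 (0.42, in the middle grid rows), Atp6v1b1 (0.37) and Aqp2 (-0.34). The part of these cell types in the differences of Serpina3n, A2m, Cp, Fgb and Fgg was not tested.

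**Figure D4:**
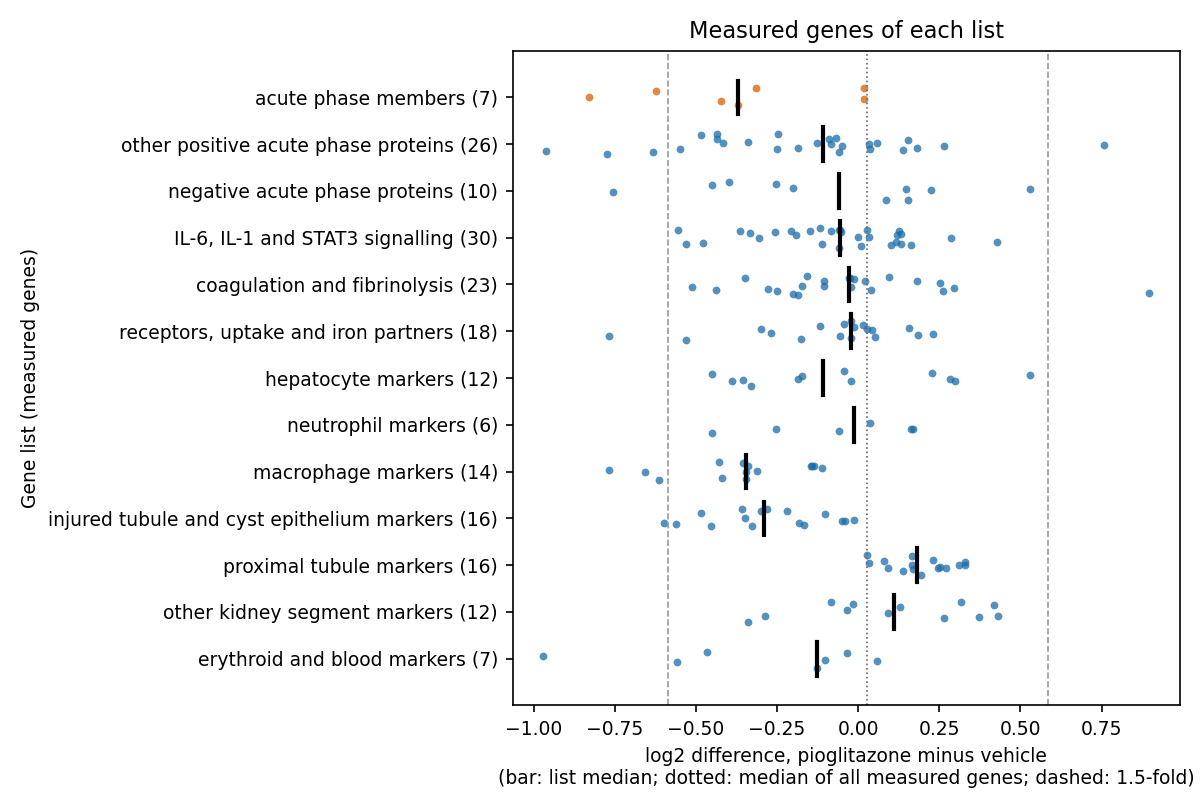
Log2 difference of each measured gene by list (number of measured genes in brackets), with the list's median as a black bar, the median of all measured genes (0.03) as a dotted line and 1.5-fold as dashed lines; height within a row is random. The median of the 7 acute phase and fibrinogen genes (orange) at -0.37 lies near those of macrophage (-0.35) and injury (-0.29) markers, and those of IL-6 signalling and coagulation lie at -0.06 and -0.03. Nothing is read from that nearness, as the set was chosen with this comparison in view.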

How the data were processed

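Spot intensity of 1 vehicle and 1 pioglitazone array was analysed. Feature Extraction 10.7.3.1 (Agilent, named in the submitters' processing notes) had corrected each array for background and spatial trend, per the file headers, and the arrays were not scaled to each other. The table of deposited values holds the same intensity at all 45018 features, with medians of 46.8 (vehicle) and 47.7. Flags of 0 or 1 were used as deposited in the scanner files.

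Spots flagged as outliers on 1 array or both (149) were left out, log2 signals were scaled to each array's 75th percentile, and replicate spots were averaged. RefSeq accessions, without versions, named 16959 probes (41.4%) through a gene table of GRCr8, and the others are unnamed here. The files use build rn4, so no probe coordinates are given. No test was possible with 1 array per group. Members, lists and the rule for named genes (every member and probe, and in each list all genes past 1.5-fold and 2 technical errors or up to 4 with the largest difference) were chosen with earlier results of these data known. A gene that the rule names among other kidney segments is not reported here. Quantile normalization, cyclic loess and normexp used limma 3.58.1 in R 4.3.3, and the other alternatives did not. The scaling and the fold threshold were tried on simulated data in which every probe was well above background and none was flagged. The filters were thus not tested there.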

Additional observations from a re-analysis of the deposited data

How the results depend on the processing

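With 1 array per group no spread between rats is known, and dim signals limit Orm1 in particular. Over the alternatives that kept the filter on dim probes, Serpina3n lay between -0.88 and -0.75, A2m between -0.65 and -0.54, Cp between -0.44 and -0.34, Fgb between -0.41 and -0.29, Fgg between -0.33 and -0.19, Fga between -0.03 and 0.10 and Hp between 0.00 and 0.10. The members lower by 1.5-fold numbered 1 with median scaling and 1 without scaling, where A2m fell short, and 0 at 2-fold. Without a filter on dim probes 1 member, Orm1, counted as higher, at signals not well above background. The members' median was -0.29 without scaling and -0.50 above the median signal, where only Serpina3n, Fga, Fgb and A2m were left. Without scaling the median of all genes was 0.11, and list medians were -0.027 for other positive and 0.024 for negative acute phase proteins, 0.026 for IL-6 signalling, 0.054 for coagulation, 0.061 for receptors, -0.026 for hepatocyte, 0.071 for neutrophil, -0.26 for macrophage, -0.21 for injury, 0.26 for proximal tubule, 0.19 for other segment and -0.046 for erythroid markers. Hepatocyte markers were at -0.033 as a mean over probes. Without a filter negative acute phase proteins were at 0.12 and neutrophil markers at -0.083. Above the median signal negative acute phase proteins were at 0.086, hepatocyte markers at 0.23, neutrophil markers at 0.16, other segments at 0.038 and erythroid markers at -0.28. Without the middle grid bands other positive acute phase proteins were at -0.22, negative ones at -0.25, hepatocyte markers at -0.19 and erythroid markers at -0.30. Median scaling and no scaling each move all differences by the same amount, which without scaling is the 0.08 otherwise removed. Under both, each list kept its place against the median of all genes. The cause of the other shifts was not tested, beyond the fewer genes that a stricter filter or fewer bands leave. The other values moved by less than their technical error (members) or the spot SD of 0.07 (medians). Naming probes by a gene name column was not run, because no such column was used, and normexp took median signals. No paired analysis was possible because there is 1 pool per treatment.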
